A study of Homo sapiens with 3 samples.

Results

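Tubulins are the building blocks of microtubules, the hollow filaments along which neurons move cargo through axons and dendrites. An alpha and a beta chain form a dimer, and each chain comes in several isotypes encoded by separate genes, most of which differ chiefly in the tail that projects from the filament surface. TUBA1A, TUBB2A, TUBB2B, TUBB3 and TUBB4A are the isotypes known for high use in nervous tissue, whereas TUBA1B, TUBA1C, TUBB and TUBB6 are used by many cell types. TUBA4A, found in brain, muscle and platelets, was kept apart from both classes.

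The accessible chromatin around these 10 genes was read from ATAC-seq of neurons. The cells came from KOLF2.1J, a widely used line of human induced pluripotent stem cells, which here carried human NGN2, a neurogenic factor, and were collected after 14 days of differentiation. In ATAC-seq the Tn5 transposase cuts open DNA, so that accessible regions gather more sequenced tags than their surroundings. The 3 biological replicates form 1 group of 1 cell line, without an untreated or undifferentiated group. The deposited list pools them by irreproducible discovery rate, a method that keeps regions ranked alike between the sets of reads compared. The list does not show in which replicates a region was found. No value per replicate and no replicate error can be given. A weaker region can mean fewer cells with open DNA or less opening per cell, and these cannot be told apart in pooled cells.

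A region was assigned to a tubulin gene when a summit, the point of highest signal, lay inside the gene or within 20 kb of its outer ends in the RefSeq table for GRCh38. The rule selected 39 distinct regions with 84 summits inside the windows, of 65234 regions and 145092 summits in all. No region was shared between the windows of 2 members. Each summit is described by its fold enrichment and its tag count. Fold enrichment is the authors' ratio of tags at the summit to the local background, worked out from the values to be an average over 10 kb that also counts the tags of the region. In the whole list this background had a floor of 29.2 tags, and the starts of all 10 members lay above it. The tag count was recovered from that ratio and the deposited p-value. In the whole list tag counts ranged from 58 to 3783 with a median of 189, and the depth of each replicate is unknown. Intervals given below are exact Poisson 95% intervals and cover counting error only.

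A start or, where none is listed, an outer end was accessible for 11 of 12 neuronal marker genes, the exception being ELAVL4. The same held for 5 of 5 neural progenitor genes, 5 of 7 astrocyte or oligodendrocyte genes, 2 of 6 pluripotency genes and 1 of 6 muscle, blood or liver genes. The accessible pluripotency genes were DPPA4, at a fold enrichment of 5.41, and LIN28A. POU5F1 and NANOG, which define pluripotent cells, had no accessible start. LIN28A and POU5F1 have no start in the RefSeq promoter table and were looked up by both outer ends of the gene. So were 5 neuronal, 4 astrocyte or oligodendrocyte and 4 muscle, blood or liver genes. Among genes with a listed start, 6 of 7 neuronal, 3 of 3 astrocyte or oligodendrocyte and 1 of 4 pluripotency genes were accessible. Over all protein-coding genes with a listed start the share was 71.2%, and none was worked out for outer ends. An accessible start is not a measure of expression, and the part of any other cell type in the values below was not tested.

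All 10 tubulin genes had an accessible start, that is, a region summit within 1 kb of a start listed by RefSeq. Among 15842 protein-coding genes with a listed start, 71.2% had an accessible start, the share against which the count of 10 is to be read. In 9 of the 10 genes the strongest summit lay just before the start, and the distance ran from 141 bp before it in TUBB to 23 bp beyond it in TUBB6. The median position was 96.5 bp before the start, against 57 bp before it over all 11283 protein-coding genes with an accessible start. The DNA in the 150 bp before the start therefore contained the strongest summit of every member except TUBB6. It is shown here, 5′ to 3′ on the strand of the gene and ending at the base before the start, for the neighbouring pair TUBA1A and TUBA1B, the near-identical pair TUBB2A and TUBB2B, the accessible start of TUBB3, and 2 starts of TUBA1C that differed in accessibility. Capitals mark the words CCAAT and GGGCGG on either strand, TATAAA on either strand, and TATA on the strand of the gene beginning 40 to 20 bases before the start. Sequences are from RefSeq, build GRCh38.p14.
TUBA1A (chr12:49189081-49189230, minus strand): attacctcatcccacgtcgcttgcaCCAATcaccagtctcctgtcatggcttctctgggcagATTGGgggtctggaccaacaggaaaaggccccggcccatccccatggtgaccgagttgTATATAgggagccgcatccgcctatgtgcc
TUBA1B (chr12:49131396-49131545, minus strand): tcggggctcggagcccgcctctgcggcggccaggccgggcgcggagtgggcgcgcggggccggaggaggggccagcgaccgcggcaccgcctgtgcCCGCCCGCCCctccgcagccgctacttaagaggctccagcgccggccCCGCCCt
TUBB2A (chr6:3157545-3157694, minus strand): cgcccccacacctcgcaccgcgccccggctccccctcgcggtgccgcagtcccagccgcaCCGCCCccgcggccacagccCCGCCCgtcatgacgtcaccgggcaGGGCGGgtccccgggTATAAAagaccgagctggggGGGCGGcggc
TUBB2B (chr6:3227654-3227803, minus strand): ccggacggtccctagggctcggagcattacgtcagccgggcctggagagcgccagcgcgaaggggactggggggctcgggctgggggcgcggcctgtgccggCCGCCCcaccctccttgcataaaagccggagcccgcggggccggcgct
TUBB3, accessible start (chr16:89923192-89923341, plus strand): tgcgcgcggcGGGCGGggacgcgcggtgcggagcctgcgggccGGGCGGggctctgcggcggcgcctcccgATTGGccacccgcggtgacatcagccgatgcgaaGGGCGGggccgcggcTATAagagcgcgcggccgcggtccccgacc
TUBA1C, upstream start with a region (chr12:49227776-49227925, plus strand): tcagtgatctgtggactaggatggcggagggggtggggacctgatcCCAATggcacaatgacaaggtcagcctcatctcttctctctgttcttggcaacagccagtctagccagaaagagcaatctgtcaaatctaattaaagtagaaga
TUBA1C, downstream start without a region (chr12:49264932-49265081, plus strand): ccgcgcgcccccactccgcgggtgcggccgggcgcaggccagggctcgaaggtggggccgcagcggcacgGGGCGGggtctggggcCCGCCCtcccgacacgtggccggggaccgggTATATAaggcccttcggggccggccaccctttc

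Neuronal and broadly used isotypes did not separate by the strength of the region at the start. Among the neuronal isotypes, fold enrichment at the start was 11.3 for TUBA1A, the main alpha chain of developing neurons, and 8.77 for TUBB2A. It was 5.25 for TUBB2B, 4.80 for TUBB4A and 4.77 for TUBB3, the beta chain used as a marker of young neurons. Among the broadly used isotypes it was 10.6 for TUBA1B, 6.35 for TUBB, 4.68 for TUBB6 and 4.01 for TUBA1C. TUBA4A was at 5.21, within the range of both classes. The classes overlapped throughout, with medians of 5.25 and 5.52. On the log2 scale, where the midpoint between TUBB and TUBB6 is taken between logarithms, the neuronal median minus the broad median was -0.05. Counting error alone allows a difference from -0.24 to 0.14. No test was made, because the 3 samples give no separate values and genes are not replicates of a condition.

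**Figure D1:**
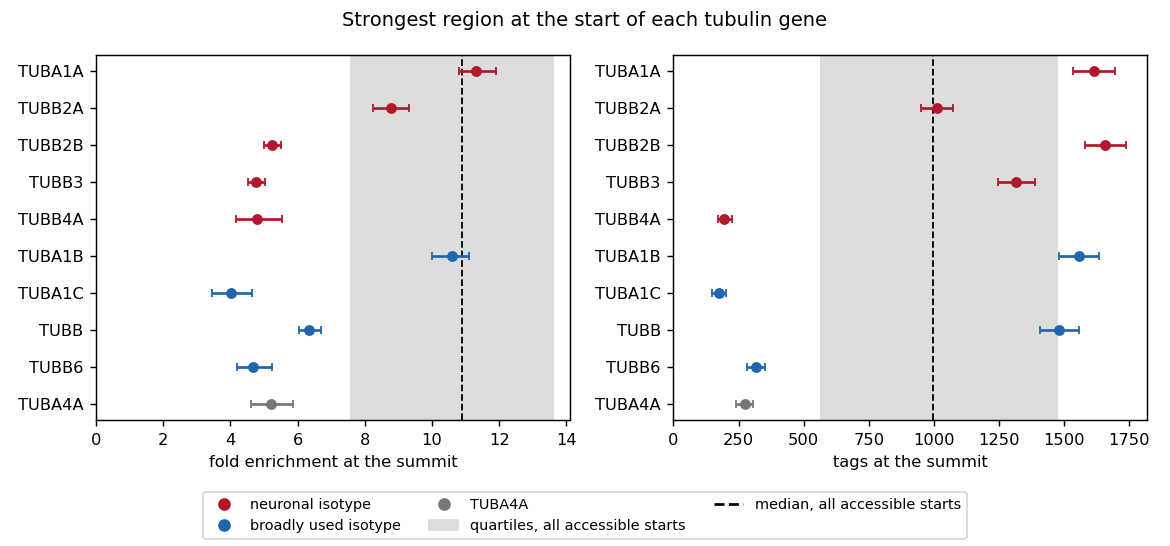
Fold enrichment (left) and tags (right) at the strongest summit within 1 kb of a start of each tubulin gene, with exact Poisson 95% intervals as bars. Grey bands are the quartiles and dashed lines the medians over the 11283 protein-coding genes with an accessible start; 7 of the 10 members lie below the band for fold enrichment, whereas their tag counts fall into a high and a low set.

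In the order of fold enrichment, 6 of the 9 neighbouring pairs had overlapping counting intervals. TUBA1A (10.8 to 11.9) overlapped TUBA1B (10.0 to 11.1), and the 6 genes from TUBB2B down to TUBA1C each overlapped the next. The separated steps were from TUBA1B to TUBB2A (8.23 to 9.32), from TUBB2A to TUBB (6.03 to 6.69), and from TUBB to TUBB2B (5.00 to 5.51). Replicate error, which is not known here, would widen these intervals.

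Tag counts gave another order and a gap. TUBB2B had the most tags at its start, 1657 (1578 to 1739), followed by TUBA1A at 1613, TUBA1B at 1556 and TUBB at 1480. TUBB3 had 1315 tags (1245 to 1388) and TUBB2A 1010 (949 to 1074). The remaining 4 genes lay far lower, with 316 tags at TUBB6, 273 at TUBA4A, 196 at TUBB4A and 174 at TUBA1C (149 to 202). Each set held neuronal and broadly used isotypes. The high set comprised 4 neuronal and 2 broadly used genes, and the low set held TUBB4A of the neuronal class, an isotype also known from myelinating cells. The neuronal minus broad difference between medians of log2 tag counts was 0.94. With 4 broadly used genes that median is the midpoint of the gap from TUBB6 to TUBB, and without TUBA1C, a setting added after seeing the data, the difference was -0.17.

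Compared with other accessible starts, the tubulin starts were of low fold enrichment. All but TUBA1A lay below the median of 10.9 over the 11283 genes, and 7 of the 10 lay below the lower quartile of 7.57. TUBA1A stood at percentile 53.6, TUBA1B at 47.2 and TUBB2A at 33.6, whereas TUBB2B stood at 11.5 and TUBB3 at 8.94. By tag count the same genes ranked differently. TUBB2B was at percentile 81.9, TUBA1A at 80.4, TUBA1B at 78.3, TUBB at 75.3 and TUBB3 at 67.2, and 6 of the 10 members exceeded the median of 998 tags. The other 4 were below the lower quartile of 568 tags. No test was made of any of these positions.

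Local background follows from the tag count and the fold enrichment by arithmetic, so it is high where many tags go with a low ratio. It was 315 tags at TUBB2B, 275 at TUBB3 and 232 at TUBB, at percentiles 99.7, 99.3 and 97.7 of all accessible starts, whose median was 88.4 tags. TUBA1B and TUBA1A had 146 and 142 tags, TUBB2A 114 and TUBB6 66.7. TUBA4A had 51.6, TUBA1C 42.7 and TUBB4A 40 tags. Because this background includes the region itself and any open DNA beside it, a start amid further accessible DNA receives a lower ratio for the same tag count.

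**Figure D2:**
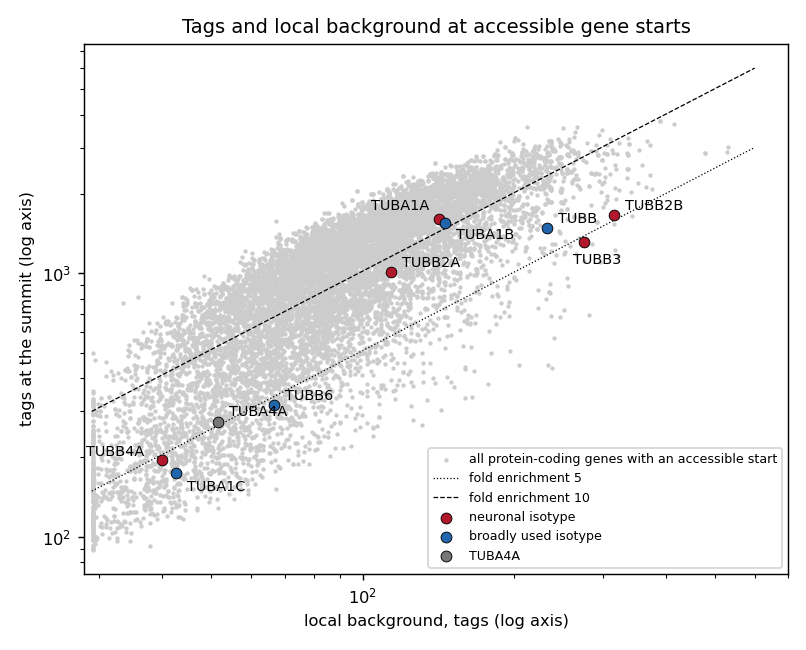
Tags at the summit against local background in tags, both on log axes, for the strongest region at the start of each tubulin gene (coloured by class) and of all 11283 protein-coding genes with an accessible start (grey). Lines mark fold enrichments of 5 and 10; TUBB2B, TUBB3 and TUBB lie far to the right at 232 to 315 background tags, so that their high tag counts give ratios of 4.77 to 6.35.

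TUBB2B and TUBB3 had further accessible DNA beside the start. The part of that DNA in their local background was not tested. The region across the TUBB2B start was 2216 bp wide, wider than 97.3% of regions at accessible starts, and held 5 summits. From its main summit, 111 bp before the start, it extended away from the gene, with summits 685, 889, 1320 and 1812 bp before the start at fold enrichments of 1.52 to 3.04. Beyond it lay 3 more regions, 2.12, 3.39 and 4.13 kb before the start, with fold enrichments of 1.79, 2.89 and 2.96 and tag counts of 569, 908 and 909. The 2 outer ones lie within 1 kb of the listed start of an uncharacterised transcript, LOC100422781. A last region, 18.4 kb from the start on the far side of the gene, had 107 tags and a score of 661, the lowest among the members.

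At TUBB3 the accessible DNA ran into the gene instead. TUBB3 spans 89921925 to 89936097 on chromosome 16, and RefSeq lists a first start at the outer end and a second at 89923342. The region with the strongest summit, 1376 bp wide, had that summit 103 bp before the second start. No region's strongest summit lay within 1 kb of the first start, and the nearest summit there, 677 bp beyond it, reached a fold enrichment of 1.71. Inside the gene, further regions had summits 1.34 and 2.88 kb beyond the second start. The second of them, at 4.37 with 1150 tags (1084 to 1218), came close to the start region, whose interval in tags it did not reach. An upstream region 11.5 kb from the gene had 202 tags.

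**Figure D3:**
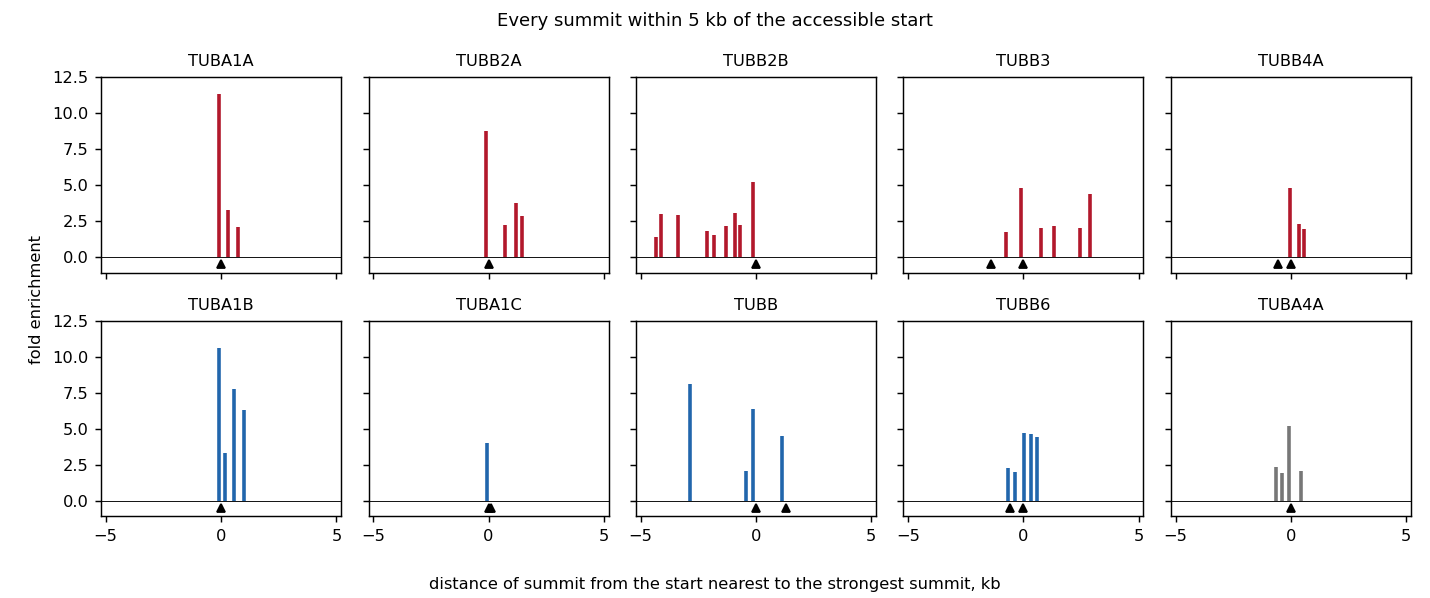
Fold enrichment of every summit within 5 kb of the start nearest to the strongest summit, 1 panel per gene, with distance in kb along the direction of transcription and triangles for listed starts. TUBB2B has a run of summits before its start, and TUBA1B has summits of 7.78 and 6.29 beyond its start. Beyond theirs, TUBB3 reaches 4.37, TUBB6 4.64 and TUBB 4.52, the last near its second listed start. TUBA1C has a single summit of 4.01.

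The start regions of TUBA1A, TUBA1B and TUBB2A differed in shape. At TUBA1A the summit 90 bp before the start was followed by summits of only 3.27 and 2.12 at 313 and 714 bp inside the gene. At TUBA1B, whose region was 1679 bp wide, summits 558 and 1003 bp inside the gene still reached 7.78 and 6.29. TUBA1B-AS1, an antisense transcript, starts 101 bp from the main summit, so this region cannot be assigned to a single gene. At TUBB2A, where the region was 2054 bp wide, the start of another transcript, LOC105374889, lay 52 bp from the main summit. TUBB2A and TUBB2B, and likewise the TUBA1 genes, have very similar coding sequences, and how reads that match more than 1 place were treated is not given in the sources used here. Values inside these genes are therefore less certain than those before their starts.

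Of the 16 listed starts of the 10 genes, 14 had a region summit within 1 kb, against 66.6% of all listed starts of protein-coding genes. Of the 5 members with more than 1 listed start, 2 had a start without a region, TUBB3 and TUBA1C. This was so for 35.3% of 4057 protein-coding genes with several starts. TUBB had separate regions at both of its starts, with 1480 tags 141 bp before the first and 1070 tags 171 bp before the second. In TUBB4A the summit lay 51 bp before the inner start and 488 bp beyond the outer one. TUBB6, with a region 1905 bp wide and 5 summits, had its strongest summit 23 bp beyond the inner start, at 4.68, and a summit of 2.24 lay 83 bp before the outer start.

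TUBA1C had a region at its upstream starts and none at its downstream start. The gene spans 46.7 kb, from 49227926 to 49274600 on chromosome 12, and its listed starts lie up to 37.2 kb apart. The region at the 2 upstream starts was a weak one, 959 bp wide with a single summit of 174 tags. At the downstream start, at position 49265082, the list used here had no region, and the edge of the nearest lay 14.4 kb away. The TUBA1 genes are very similar in sequence, the part of read placement among them was not tested, and an absent entry does not show that the DNA was closed. Base composition ran opposite to this. The 300 bases around the downstream start, 250 before and 50 after, were 67.7% G or C with 25 CG dinucleotides, and those around the upstream starts were 48.0% and 46.7% with 2 each. Of all listed starts of protein-coding genes at least as rich in G and C as the downstream one, 88% had a region within 1 kb. Of those no richer than the poorer upstream start, 22.9% had one. The downstream and the upstream starts of TUBA1C were thus each in the smaller share of starts of like composition. TUBA1C also held regions inside the gene, with summits 5.11 and 6.59 kb beyond the upstream starts and fold enrichments of 4.10 and 7.99. The strongest region of its window by fold enrichment, 10.5 with 590 tags, lay 12.9 kb before the gene.

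Away from the starts of protein-coding genes, the neuronal isotypes had more regions than most of the broadly used ones. TUBB2B had 4 such regions, TUBA1A and TUBB3 had 3 each, and TUBB2A and TUBB4A had 2 each. TUBA1B and TUBB had 1 each, and TUBB6 and TUBA4A had none. TUBA1C, by far the longest gene, had 5, so the classes overlapped. The medians were 3 for the neuronal and 1 for the broadly used class, and 1 over all protein-coding genes with quartiles of 0 and 3. At least 1 such region was present for 8 of the 10 members, against 69.5% of protein-coding genes. The comparison depends on how much sequence is searched, since the difference of 2 between the medians became 1 with windows of 10 kb and 3 with windows of 50 kb.

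Most of these regions in the neuronal class lay before the gene. All 5 neuronal isotypes had at least 1 region upstream of the gene and away from any protein-coding start, 10 regions in total, whereas of the 4 broadly used isotypes only TUBA1C had one. Among protein-coding genes with a listed start 30.8% had such a region. This split was chosen after the values were seen and was not tested. At TUBA1A the upstream regions formed a cluster 9.91, 12.2 and 13.0 kb before the start, with fold enrichments of 9.0, 7.47 and 5.28 and tag counts of 917, 749 and 523. They span 49198375 to 49202271 on chromosome 12, between TUBA1A and TUBA1C. At TUBB2A the upstream regions had summits 5.19 kb and 8.89 kb before the start, at 6.58 with 695 tags and at 3.34 with 251 tags. At TUBB4A a region 1552 bp wide, 14.2 kb before the outer start, reached 6.68 with 431 tags (391 to 474), more than the 196 tags (170 to 225) at its start. Beyond the gene and away from protein-coding starts, regions had 107 tags at TUBB2B and 203 at TUBB4A. They had 206 at TUBA1B, 155 at TUBB, and 121 and 170 at TUBA1C. The median over the whole list was 189 tags.

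**Figure D4:**
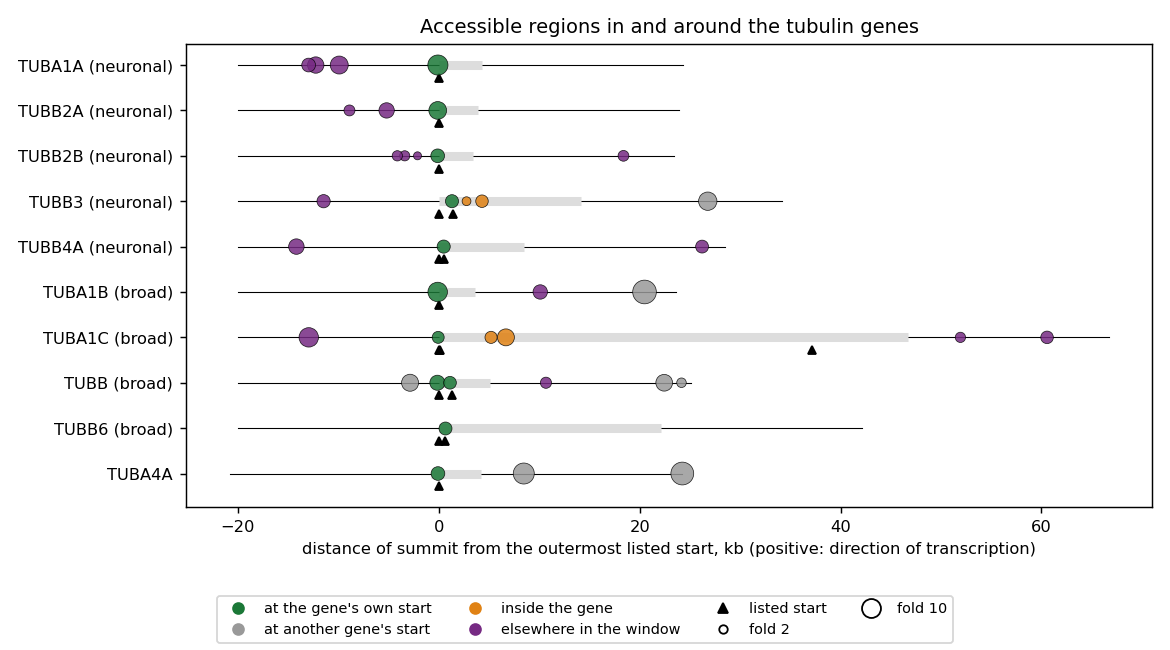
Summits of the 39 regions by distance in kb from the outermost listed start, positive in the direction of transcription, with circle area proportional to fold enrichment, colour by place, grey bars for gene bodies and thin lines for the windows. For TUBA4A, where 1 region has only minor summits inside the window, its strongest summit is drawn just outside. All 5 neuronal isotypes have purple circles to the left of the start, among the broadly used ones TUBA1C alone does.

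Some regions in the windows lay at the starts of neighbouring protein-coding genes. These were 4 of the 16 regions of the broadly used class, 3 at TUBB and 1 at TUBA1B, 1 of 20 in the neuronal class, and 2 of 3 for TUBA4A. Over the windows of all protein-coding genes with a listed start the share was 16.1%. A region of higher fold enrichment than at the gene's own start was present in the window of 6 of the 10 members, against 37% of protein-coding genes with an accessible start. In 4 of the 10 such a region was at another gene's start, against 21%. TUBA1B's window reached the start of LMBR1L, with a fold enrichment of 15.6, and that of TUBB the start of MDC1, at 8.08 with 1790 tags, 2.86 kb before TUBB. The window of TUBA4A held the shared start of GLB1L and STK16 at 12.3 and part of the region at ATG9A and ANKZF1 at 14.5. TUBB3 had DEF8, at 9.38. The start region of TUBA4A itself, at 5.21, also lay 759 bp from the start of TUBA4B. For TUBB6 the window held no region other than the 1 at the start, although it was 22.2 kb of gene plus both flanks.

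The base composition and short words of the promoters were compared with 35114 promoters of the same 300 bp length in the RefSeq table. That set was not limited to protein-coding genes, for which 22196 starts are listed. Shares over promoters of protein-coding genes alone were not worked out, so differences from all promoters may partly follow gene type. Of the 16 member starts, 11 exceeded the median G and C share of 58.7%. Among the starts with a region near, TUBB6's inner start was highest at 81.3% with 50 CG dinucleotides, TUBB2A and the inner start of TUBB3 had 79.0%, and TUBA1A had 55.7% with 16. GGGCGG, the word of the GC box bound by SP factors, occurred on either strand at 11 of the 16 starts, against 45.0% of all promoters. These starts belong to 9 of the 10 genes, with TUBA1A as the exception. The word holds only G and C, and promoters of like composition were not compared. CCAAT, the word bound by NF-Y, occurred on either strand at 9 starts of 7 genes, against 34.6%. The E-box words CAGATG and CAGCTG each occurred at 1 start, the outer start of TUBB4A, against 14.7% and 17.9%, and the palindromic word of NRF1 at none, against 1.24%. A match is not a bound site.

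TATAAA on either strand occurred in TUBB2A alone, against 11.5% of all promoters. The sequences printed above show the word TATA, not as part of TATAAA, near the start in TUBA1A, TUBB3 and TUBA1C. A search for TATA on the strand of the gene, beginning 40 to 20 bases before the start, was added after seeing them. It matched 6 of the 16 starts, in TUBA1A, TUBB2A, TUBB3, TUBB4A, TUBA4A and TUBA1C, against 6.17% of all promoters. The word began 30 bases before the start in TUBA1A, TUBB2A and TUBB3, 29 in TUBA4A, 28 in TUBB4A and 33 in TUBA1C. In TUBB3 and TUBB4A it stood at the inner start, next to the summit. In TUBA1C it stood at the downstream start, for which the list used here had no region. Of the 5 neuronal isotypes 4 had the word, and of the 4 broadly used ones 1 did. Since the word was chosen on these promoters, the count is a description only.

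Other genes of the tubulin pathway set the 10 members in context. Of 48 listed genes, 45 had a listed start, and 37 of the 45 were accessible there, beside the 71.2% of protein-coding genes. The folding list, with the cofactors TBCA to TBCE, their regulator ARL2 and the prefoldin subunits that hand new chains to the chaperonin, was accessible at 11 of 11 starts with a median fold enrichment of 12.4. It ranged from 8.02 at TBCC to 19.1 at TBCE. Of the genes listed for the modification of tubulin, 17 of 18 were accessible with a median of 11.5. AGBL2, a carboxypeptidase gene, was the exception, and TTL, the ligase that restores the tail tyrosine of alpha chains, had the lowest value at 7.29. All 4 severing genes with a listed start were accessible, SPAST and KATNA1 at 12.4, KATNAL1 at 14.4 and FIGN at 6.47.

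The other tubulins were the list with the most starts lacking a region. Only 5 of 12 were accessible. They were the gamma genes TUBG1 (16.8) and TUBG2 (11.9), which seed microtubules, the delta and epsilon genes TUBD1 (15.6) and TUBE1 (12.3) of centrioles, and weakly TUBA8 (3.36, 115 tags). TUBB1, the beta chain of platelets, and TUBB8, TUBB8B, TUBA3C, TUBA3D, TUBA3E and TUBAL3 had no region within 1 kb of a listed start. TUBB8, TUBB8B and the TUBA3 genes have near-identical copies elsewhere in the genome, and the part of read placement there was not tested. The median fold enrichment of the 10 members, 5.23, was below those of the accessible genes in all 4 lists. In tag counts the members' median was 1162, against 1152 for the other tubulins, 1087 for folding, 1048 for modification and 1453 for severing.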

How the data were processed

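ATAC-seq libraries of 3 biological replicates of NGN2 neurons gave the 1 pooled list analysed here, whose build is hg38, per the submitters' processing notes. The authors deposited, for each summit, a score from 540 to 1000, a fold enrichment as a linear ratio from 1.29 to 31.9, and −log10 p and q values. The aligner, peak caller and filters are not given in the sources used here. Starts, strands and promoters came from RefSeq tables (GRCh38.p14). Of 15842 protein-coding genes, 71.2% had a region within 1 kb of a listed start, against 7.12% and 7.31% when starts were moved by 10 and 100 kb.

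Entries with equal bounds were merged into regions, each represented by the entry of highest −log10 p. A tag count was recovered as the whole number k for which the ratio equals (k + 1)/(background + 1) and the Poisson probability of more than k tags gives the deposited −log10 p, to within 0.00079. The recovery was tested on simulated data. Marker and pathway genes were matched by symbol, or by older symbol through the synonyms in the RefSeq table. Genes without a listed start were represented by both outer ends when starts of other genes and marker genes were looked up. The members, classes and lists were chosen with earlier results of these data known. The genes and regions named are the 10 members, their regions at starts, the region of highest fold enrichment elsewhere in each window, and listed pathway genes. Others are named for location, and further regions of members were added after their values were seen. Python 3.11.15 with numpy 2.4.6, scipy 1.17.1, pandas 2.3.3 and matplotlib 3.10.9 was used. Alternatives were a score of at least 830, all entries, other windows, overlap of 1 bp, other class assignments and tag counts.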

Additional observations from a re-analysis of the deposited data

How the results depend on the processing

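Of 33 recomputed values for 6 results, 21 stayed within the limit set for them (1.5 times for counts, the counting interval for the log2 difference, equality for the difference in regions) and 12 moved. The number of members with an accessible start was 10 with the stricter score, all entries, windows of 500 bp and 2 kb and overlap of 1 bp, and 9 with the outermost listed start only, where TUBB3 had none. The 39 regions became 84 as entries and 79 with windows of 50 kb, which follows from what each setting admits. The log2 difference in fold enrichment at the start, -0.05, became -0.56 with all entries, -0.34 with TUBB2A counted as broad and -0.27 without TUBA1C. It changed sign to 0.32 with the outermost starts and to 0.94 in tag counts, where it was -0.17 without TUBA1C, and the cause was not tested. The difference of 2 regions away from starts was 1 with windows of 10 kb, 3 with windows of 50 kb, 1.5 with TUBA4A counted as neuronal and 4.5 with all entries. The TATA words were found in 1 member as TATAAA and in 6 as TATA near the start. The outermost starts, the settings without TUBA1C, the TATA window and the windows for the pathway genes were chosen after seeing the data.

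No paired analysis was possible because all 3 samples belong to a single group and were deposited only as pooled values, which also means that leaving out a replicate was not done. At the weakest member start 174 tags limit the precision, and the depth of each replicate is unknown.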
